A study of Mus musculus with 8 samples.

Results

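The imprinted genes Peg10, Sgce, Peg3, Ube3a, Snrpn, Ndn, Magel2, Grb10, Plagl1 and Dlk1, were followed in the aging mouse brain, with Peg10 set against its neighbour Sgce. They are 10 of the 22430 genes in the deposited count table and were selected on measured values: the set was chosen by name, and by its 24-month against 6-month counts in these libraries. Their differences between ages are therefore given as a description: where one of them is said to be called, this states only that its values pass the thresholds applied to all genes, and it is not evidence of a change. All 10 were in the table, and all 10 passed the filter of more than 5 counts in at least 4 libraries.

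RNA was taken from brain hemispheres of 8 male C57Bl/6JRj mice with no transgene, 4 aged 6 months (6m, young adult) and 4 aged 24 months (24m), tissue that the sample labels call whole brain. Each library came from a separate mouse, and poly(A)-selected RNA was made into directional paired-end libraries. The comparison asked how transcript abundance differs between the ages. Since the RNA is from a whole hemisphere, fewer cells of a type and less RNA per cell cannot be told apart, and gene counts do not separate the maternal from the paternal allele.

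An imprinted gene is transcribed mainly from the chromosome inherited from one parent. The choice is set in the germ line by DNA methylation at control regions and is kept in body cells by zinc finger proteins and DNA methyltransferases. Many such genes lie in clusters, act in growth and metabolism, and are transcribed in the hypothalamus and other parts of the brain. Of the 10 genes, Peg10, Sgce, Peg3, Snrpn, Ndn, Magel2, Plagl1 and Dlk1 are known as paternally expressed. Ube3a is expressed from the maternal copy in neurons, where an antisense transcript silences the paternal copy, and Grb10 uses the paternal copy in neurons and the maternal one in most other tissues.

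A pair of these promoters is shown first because the results turn on it. Peg10 (ENSMUSG00000092035, chromosome 6, 4747306 to 4760517, plus strand, GRCm39) and Sgce (ENSMUSG00000004631, chromosome 6, 4672057 to 4747207, minus strand) start head to head, with 98 bases between the gene bodies. Peg3 (ENSMUSG00000002265, chromosome 7, 6706882 to 6733468, minus strand) lies in the same arrangement with Usp29 (ENSMUSG00000051527, chromosome 7, 6733577 to 6970218, plus strand), with 108 bases between them. Both stretches lie outside all annotated transcripts of the pair. They are printed from 5′ to 3′ on the strand of the gene named first, from the GRCm39 genome, with CpG dinucleotides, the sites of imprint methylation, in capitals.
Peg10–Sgce, chr6:4747208-4747305, plus strand: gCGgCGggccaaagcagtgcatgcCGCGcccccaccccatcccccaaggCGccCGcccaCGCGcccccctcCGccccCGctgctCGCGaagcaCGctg
Peg3–Usp29, chr7:6733469-6733576, minus strand: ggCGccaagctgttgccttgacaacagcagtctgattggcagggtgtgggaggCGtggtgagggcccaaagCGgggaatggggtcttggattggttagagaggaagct

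The stretch between Peg10 and Sgce held 13 CpG and that between Peg3 and Usp29 held 3. In a window from 250 bases before to 50 after the canonical start, Peg10 and Sgce had 24 CpG each, and 298 of the 300 bases were the same genomic positions read on opposite strands. As many CpG or more were present in 19% of the 21770 protein-coding promoters of that length. The window of Peg3 held 9 CpG, a number reached by 55.9% of promoters, and the window of Usp29, which shared 213 bases with it, held 17. These overlaps follow from the window length and the distance between canonical starts (4747406 for Peg10 and 4747207 for Sgce, 6733468 for Peg3 and 6733582 for Usp29). They do not measure how much promoter a pair shares.

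Across all genes, 7295 of the 16730 tested (43.6%) were called between 6m and 24m, by the quasi-likelihood test of edgeR at a Benjamini-Hochberg adjusted p (padj) up to 0.05 with an absolute log2 fold change (log2FC) of 0.58 or more. Genes called higher at 24m made up 25.3% and genes called lower 18.3% of those tested, and in 55.2% the libraries of the ages did not overlap. Library totals ran from 63460940 to 103462414 counts, with 24m replicate 1 the deepest. Levels are given as counts per 1000000 (CPM) scaled by trimmed mean of M values (TMM) factors, with the SD over 4 libraries per age. Under this scaling the median log2FC of all genes was -0.0034, and with library totals alone it was 0.21. The balance of directions depended on the scaling. Called higher and lower were 4237 and 3058 genes under TMM, 5449 and 1746 with library totals alone, and 3569 and 3890 after quantile normalization with DESeq2.

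Among the 10 imprinted genes, 4 were called higher at 24m (Peg10, Peg3, Grb10 and Plagl1), 3 were called lower (Ube3a, Snrpn and Ndn), and 3 were not called (Sgce, Magel2 and Dlk1). The libraries of the ages did not overlap in 6 of the 10. Since the genes were chosen on this contrast, the shares are not compared with the background. Their median log2FC was 0.16, with a range of -1.64 to 3.61, so the set had no common direction.

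**Figure D1:**
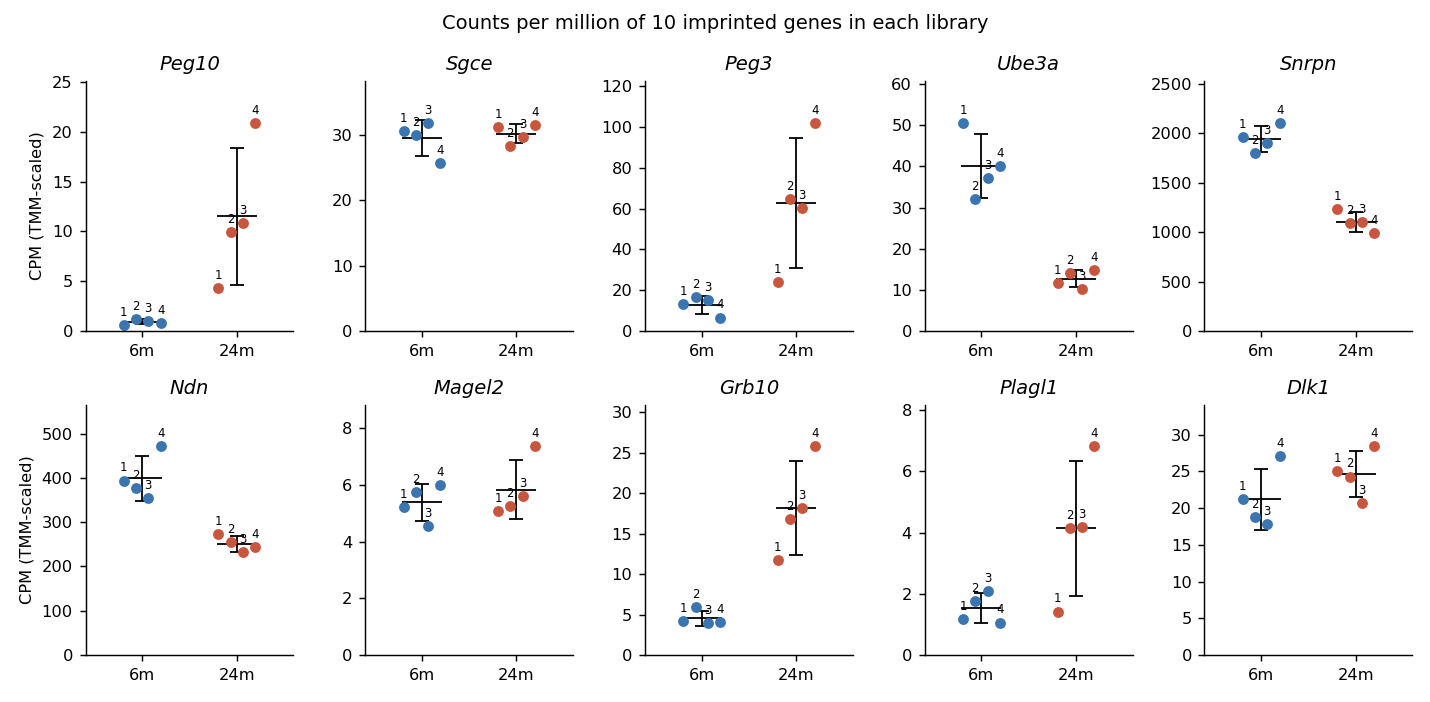
CPM (TMM-scaled, y axis starting at 0) of the 10 imprinted genes in each 6m (blue) and 24m (red) library, with replicate numbers beside the points and the mean ± SD in black (n = 4 per age). The 24m libraries of Peg10, Peg3 and Grb10 lie above all 6m libraries, and those of Ube3a, Snrpn and Ndn lie below them.

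Peg10 encodes Gag- and Pol-like proteins derived from a retrotransposon and is needed for placental development. At 6m it had 0.64, 1.23, 1.03 and 0.847 CPM in replicates 1 to 4, from 42, 87, 62 and 56 counts. At 24m it had 4.33, 9.97, 10.8 and 20.9 CPM, from 449, 799, 898 and 1824 counts. Every aged library was above every young one, and the aged libraries differed widely among themselves, with replicate 1 lowest and replicate 4 highest. The mean went from 0.937 ± 0.252 to 11.5 ± 6.9 CPM, a log2FC of 3.61 ± 0.45 (SE), or 12.2-fold. That value was number 12 from the top among the 16730 genes.

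Sgce encodes epsilon-sarcoglycan, a membrane protein of the dystrophin-associated complex whose loss causes myoclonus-dystonia in people. Its 6m libraries had 30.5, 30, 31.8 and 25.6 CPM, and its 24m libraries 31.1, 28.3, 29.6 and 31.4 CPM. The ages overlapped, and the coefficient of variation at 24m was 4.76%, against 60% for Peg10 in the same libraries. The log2FC of 0.03 ± 0.09 lay near 0 and its sign was not stable. Leaving out 6m replicate 4 made it -0.03, quantile normalization made it -0.06 and removing a trend over GC content -0.24. Removing a trend over exonic length made it -0.45 (edgeR padj = 0.0101), still inside the fold-change threshold.

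Set against Sgce within each library, Peg10 had a log2 ratio of -5.52, -4.58, -4.92 and -4.88 at 6m (mean -4.97 ± 0.39) and -2.84, -1.50, -1.46 and -0.59 at 24m (mean -1.60 ± 0.93). In counts, there were 2.1 to 4.1 Peg10 counts for every 100 Sgce counts in the young libraries and 13.9 to 66.5 in the aged ones. In CPM, not divided by length, Peg10 was below Sgce in every library, whereas per kb of exonic length it was above Sgce in 24m replicate 4 (3.14 against 2.3 CPM per kb). The difference of 3.38 between the age means does not depend on the scaling of libraries, and it was 3.04 to 3.79 over the alternatives, the lowest without 24m replicate 4 and the highest without 24m replicate 1.

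**Figure D2:**
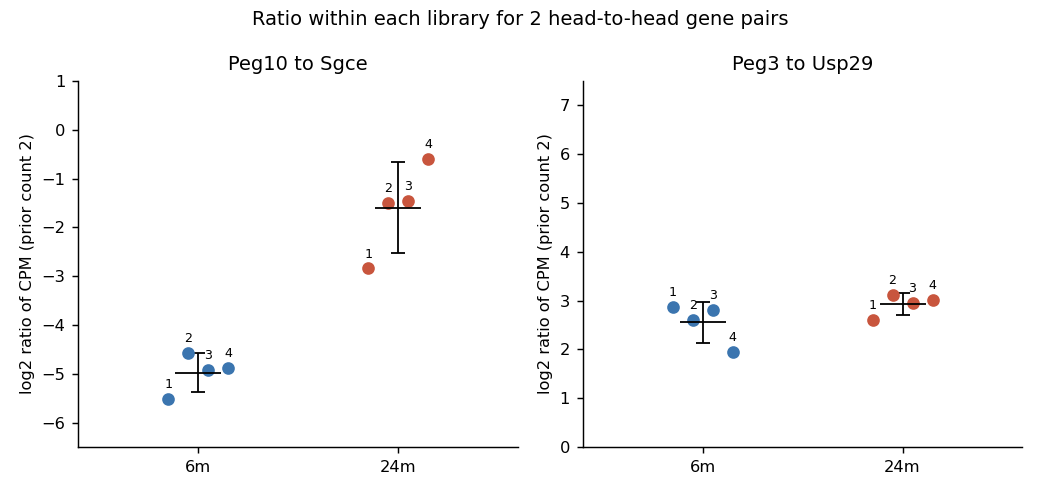
Log2 ratio of CPM (prior count of 2) within each library for Peg10 to Sgce (left) and Peg3 to Usp29 (right), at 6m (blue) and 24m (red), with replicate numbers and the mean ± SD in black. The Peg10 to Sgce ratio differed by 3.38 between the age means, and the Peg3 to Usp29 ratio by 0.36 with overlapping libraries.

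Within 500 kb of the Peg10–Sgce pair, 5 other protein-coding genes were tested. Ppp1r9a, which encodes neurabin, an actin-binding protein of dendritic spines that is also known as imprinted, rose from 5.13 ± 0.627 to 34.4 ± 17.2 CPM (log2FC 2.74 ± 0.38, edgeR padj = 0.000282). With a trend over exonic length removed its log2FC was 2.12. Casd1, a sialic acid acetyltransferase, rose from 10.5 ± 2.45 to 23.4 ± 6.66 CPM (log2FC 1.15 ± 0.23, edgeR padj = 0.00206). The other 3 were not called. Col1a2, a type I collagen chain, had a log2FC of 0.18, which was -0.27 with the length trend removed and -0.03 with the GC trend removed. Pon1 and Pon3, both paraoxonases, had log2FC of 0.20 and 0.50, and that of Pon1 was -0.05 with the GC trend removed. Sgce therefore lay between called neighbours on both sides, Casd1 to the left and Peg10 and Ppp1r9a to the right.

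Peg3 encodes a large zinc finger protein that acts in growth and maternal behaviour. Its levels were 13.5, 16.5, 15.3 and 6.7 CPM at 6m and 24.2, 64.6, 60.2 and 102 CPM at 24m. No aged library overlapped the young ones, and as for Peg10 the aged replicate 1 was lowest and replicate 4 highest. The mean went from 13 ± 4.38 to 62.7 ± 31.7 CPM (log2FC 2.27 ± 0.41), and the log2FC was 1.71 with the length trend removed.

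Usp29, a ubiquitin-specific protease gene that starts head to head with Peg3, was picked for this comparison after its values were seen. It rose from 2.1 ± 0.437 to 7.92 ± 3.5 CPM (log2FC 1.91 ± 0.31, edgeR padj = 0.000702), or 1.25 with the length trend removed. The Peg3 to Usp29 log2 ratio was 2.87, 2.61, 2.80 and 1.94 at 6m and 2.60, 3.11, 2.96 and 3.02 at 24m. The ages overlapped, and the means of 2.56 ± 0.42 and 2.92 ± 0.22 differed by 0.36. In this pair both genes were called higher, whereas of Peg10 and Sgce only Peg10 was. Zim1, a zinc finger gene on the other side of Peg3, also rose (log2FC 1.67 ± 0.42, edgeR padj = 0.00624) at levels of 0.264 and 0.846 CPM. In all, 4 of the 16 tested neighbours of Peg3 were called higher (25%, near the 25.3% of all genes). None was called lower, against 18.3% of all genes.

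Ube3a (ENSMUSG00000025326, chromosome 7, 58878492 to 58961832, plus strand) encodes the E3 ubiquitin ligase that is lost in Angelman syndrome. The 6m libraries had 50.6, 32.2, 37.2 and 40 CPM and the 24m libraries 11.8, 14.1, 10.3 and 14.9 CPM. All aged libraries lay below all young ones. From 40 ± 7.75 CPM the mean went to 12.8 ± 2.13 CPM, a log2FC of -1.64 ± 0.16, which is 3.13-fold lower. That value was number 78 from the lowest among the 16730 genes. With the length trend removed, the log2FC was -2.29.

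Of the exonic bases of Ube3a, 28.5% are also exonic in genes on the other strand, 8.29% in the silencing antisense transcript Snhg14. Whether counting used strand was not stated, and Snhg14 was not among the genes analysed here, so its part in the Ube3a counts was not tested. The only protein-coding neighbour within 500 kb was Atp10a, a phospholipid flippase gene, which was not called (log2FC -0.20 ± 0.21, edgeR padj = 0.428). Over the alternatives its log2FC ranged from -0.57 after quantile normalization and -0.55 with the length trend removed to 0.01 without 24m replicate 1 and 0.03 under scaling by library totals alone.

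Snrpn, Ndn and Magel2 belong to the same imprinted domain of chromosome 7, which corresponds to the Prader-Willi region. Snrpn (59630427 to 59820763, minus strand) encodes SmN, the neuronal form of a core protein of spliceosomal particles. It was by far the most abundant of the 10, with 1959, 1801, 1900 and 2107 CPM at 6m and 1237, 1096, 1100 and 991 CPM at 24m. The ages did not overlap, and here the aged replicate 1 was highest and replicate 4 lowest, the reverse of Peg10. The log2FC was -0.81 ± 0.10, and it missed the fold-change threshold after quantile normalization, at -0.47.

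Reads at this locus are divided among overlapping gene models. On the same strand, 13.3% of the exonic bases of Snrpn are shared with Gm38393, and 2.3% with Snurf, which is made from the same transcript. Neither was called: Gm38393 had a log2FC of -0.36 ± 0.09 and Snurf one of -0.08 ± 0.09 (edgeR padj = 0.00748 and 0.452). Summed over the 3 genes, a step added after the values were seen, the locus had 3812 to 4319 CPM at 6m and 2598 to 3086 CPM at 24m. The sum thus fell in all aged libraries, by 0.50 on the log2 scale of the means, less than Snrpn alone. Snrpn made up 49% of the sum at 6m and 39.5% at 24m, and how the counting divided reads among the 3 was not tested.

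Ndn (61995473 to 62000010, plus strand) encodes necdin, a MAGE-family protein of postmitotic neurons. It had 394, 377, 355 and 471 CPM at 6m and 273, 254, 232 and 243 CPM at 24m, with no overlap. The log2FC of -0.67 ± 0.10 was near the threshold, and the gene was not called with library totals alone (-0.45), after quantile normalization (-0.45) or with the length trend removed (-0.56). Magel2 (62026758 to 62031388, plus strand), another MAGE-family gene of the region, had 4.54 to 6.01 CPM at 6m and 5.07 to 7.36 CPM at 24m. The ages overlapped, and its log2FC of 0.11 ± 0.15 turned to -0.02 without 24m replicate 4 and to -0.23 under quantile normalization. The next genes along, Mkrn3 and Peg12, were not called at mean levels below 1 CPM (log2FC -0.19 ± 0.24 and -0.04 ± 0.54). Within the domain, taken with Ube3a and Atp10a, Ube3a, Snrpn and Ndn were called lower at 24m, and Atp10a, Snurf, Gm38393, Magel2, Mkrn3 and Peg12 were not called.

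Grb10 (ENSMUSG00000020176, chromosome 11, 11880498 to 11988683, minus strand) encodes an adaptor that binds and restrains the insulin and insulin-like growth factor 1 receptors. Its levels were 4.21, 5.88, 3.95 and 4.09 CPM at 6m and 11.8, 16.8, 18.2 and 25.8 CPM at 24m. Every aged library was above every young one, and the mean went from 4.53 ± 0.908 to 18.1 ± 5.82 CPM (log2FC 2.00 ± 0.24, and 1.57 with the length trend removed). Ddc, the adjoining gene for aromatic amino acid decarboxylase, was not called (log2FC -0.02 ± 0.17, edgeR padj = 0.931). Farther out, Cobl and Ikzf1 rose (log2FC 1.14 and 1.42, edgeR padj = 0.000915 and 0.00147).

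Plagl1 (ENSMUSG00000019817, chromosome 10, 12936248 to 13007438, plus strand) encodes a zinc finger transcription factor that restrains cell division. It had 1.17, 1.77, 2.09 and 1.06 CPM at 6m and 1.42, 4.14, 4.17 and 6.82 CPM at 24m. Unlike the other called genes its ages overlapped, because the aged replicate 1 lay within the young range. The log2FC was 1.44 ± 0.42, 1.75 without that library and 1.09 with the length trend removed. Among 8 tested neighbours, the dystrophin homologue Utrn rose (log2FC 1.61 ± 0.26, edgeR padj = 0.000691, and 0.97 with the length trend removed) and the splicing factor gene Sf3b5 fell (log2FC -0.89 ± 0.15, edgeR padj = 0.000859).

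Dlk1 (ENSMUSG00000040856, chromosome 12, 109418749 to 109429262, plus strand) encodes a membrane protein related to Notch ligands. Its 6m libraries had 21.2, 18.8, 17.8 and 27.1 CPM and its 24m libraries 25.1, 24.3, 20.7 and 28.4 CPM. The ages overlapped, and the log2FC was 0.22 ± 0.15. Rtl1, a retrotransposon-derived gene of the same imprinted cluster, fell from 10.2 ± 1.32 to 3.96 ± 0.866 CPM (log2FC -1.36 ± 0.17, edgeR padj = 0.000193). Rtl1 lies 126 kb from Dlk1.

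**Figure D3:**
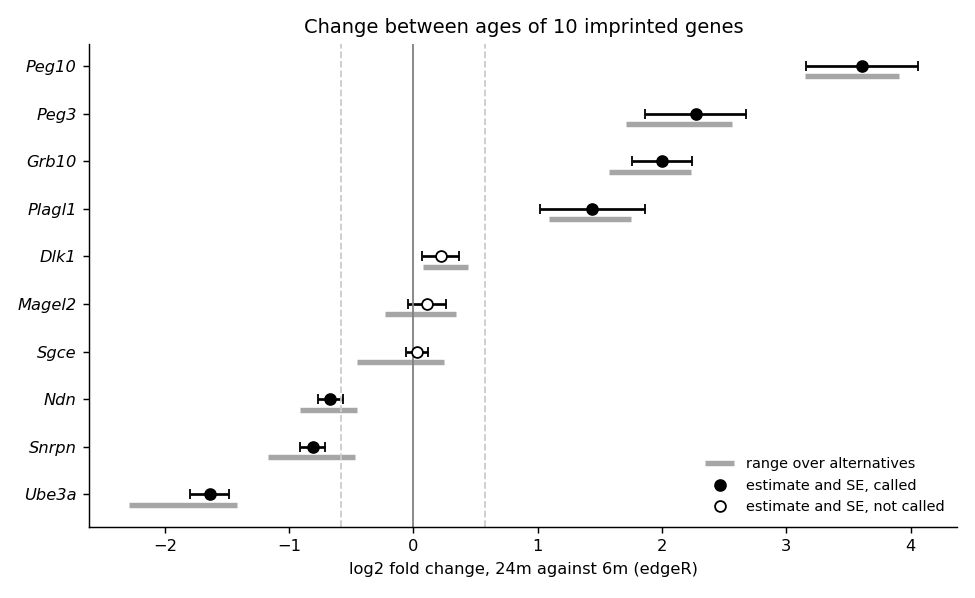
Log2 fold change of 24m against 6m for each imprinted gene (points, with SE bars; filled where called) and its range over the alternative settings (grey). Dashed lines mark the threshold of 0.58. Peg10 lies at 3.61 and Ube3a at -1.64, and the grey ranges of Sgce and Magel2 cross 0.

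The 4 genes called higher shared an order among aged mice, in that replicate 1 was lowest and replicate 4 highest in each. This order was not particular to them: Usp29, Ppp1r9a, Casd1, Kcnk9, Zdbf2 and Igf2 had it, and Snrpn, Gm38393 and Rtl1 had the reverse. The TMM factors of 24m replicates 1 to 4 were 1, 1.1, 1.09 and 1.13, and their part in this order was not tested. Without 24m replicate 1 their log2FC were 3.91 for Peg10, 2.56 for Peg3, 2.18 for Grb10 and 1.75 for Plagl1. Without 24m replicate 4 they were 3.15, 1.93, 1.78 and 1.09 in the same order. Over all 8 libraries, a measure that includes the difference between ages on which Peg10 was chosen, 2627 of 13960 genes averaging 1 CPM or more had a Pearson r of 0.95 or more with Peg10. Arhgap35 and Acp2 were among those most like it (r = 0.999 each, with r of 0.99 for deviations from the age means). For Ube3a, 369 genes reached 0.95, led by Rdx (0.995), Hsp90aa1 (0.993) and Ubxn4 (0.993). These correlations over 8 libraries describe likeness in shared libraries.

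Levels of different genes were compared per kb of exonic length. At 6m the order of CPM per kb was Snrpn (207), Ndn (106), Dlk1 (3.51), Sgce (2.16), Ube3a (1.84), Magel2 (1.16), Peg3 (0.952), Grb10 (0.442), Plagl1 (0.178) and Peg10 (0.14). The libraries of Sgce and Ube3a overlapped, as did those of Magel2 and Peg3, those of Peg3 and Grb10 and those of Plagl1 and Peg10. At 24m the order was Snrpn (118), Ndn (66.3), Peg3 (4.59), Dlk1 (4.08), Sgce (2.2), Grb10 (1.77), Peg10 (1.72), Magel2 (1.26), Ube3a (0.589) and Plagl1 (0.483). Peg3 overlapped Dlk1, the run from Sgce to Magel2 overlapped from each gene to the next, and Ube3a overlapped Plagl1. Peg10 thus went from the bottom to the level of Grb10, while Ube3a went from beside Sgce to beside Plagl1.

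**Figure D4:**
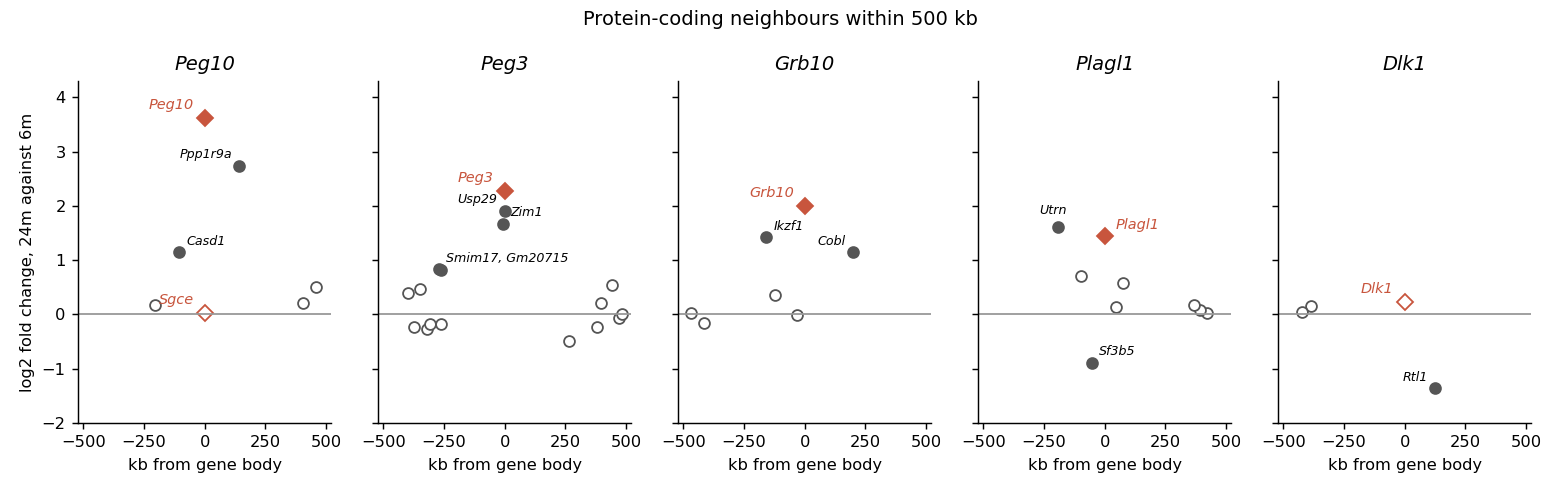
Log2 fold change (y axis) of tested protein-coding genes within 500 kb of a named imprinted gene, against distance from its gene body in kb (x axis). Diamonds are the imprinted genes, circles their neighbours, and filled symbols were called. Called neighbours lie beside Peg10, Peg3, Grb10, Plagl1 and Dlk1, among more neighbours that were not called.

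Around all 10 genes, 43 protein-coding neighbours within 500 kb were tested. Their median log2FC was 0.13, with 9 called higher and 2 lower, which is 25.6%. The share in all tested genes was 43.6% with a median of -0.0034, so the share near the imprinted genes was below that of the whole table. Over the alternatives 9 to 16 neighbours were called, the most with library totals alone (14 higher and 2 lower).

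Other known imprinted genes were counted from a list that holds none of the 10. Their median log2FC was 0.10, and of 34 tested, 12 were called higher and 6 lower (52.9%, against 43.6% of all genes). The 17 paternally expressed genes gave 5 higher and 4 lower, and the 17 maternally expressed genes 7 higher and 2 lower. Among the former, Zdbf2, a zinc finger gene tied to growth and feeding, rose from 0.516 to 3.13 CPM (log2FC 2.59 ± 0.50, edgeR padj = 0.00168), and Mcts2, a retrogene copy of a translation factor, fell (log2FC -0.82 ± 0.13, edgeR padj = 0.000662). Mcts2 was not called with the length trend removed, at -0.11. Among the latter, the potassium channel gene Kcnk9, which the study also named from these samples, rose from 1.28 ± 0.361 to 11.7 ± 5.22 CPM (log2FC 3.19 ± 0.34, edgeR padj = 9e-05). With the length trend removed its log2FC was 2.63. Commd1, a copper-handling factor, fell (log2FC -0.62 ± 0.10, edgeR padj = 0.000607), but was not called with library totals alone, at -0.40. With a filter of at least 1 CPM in 4 libraries, fewer of these genes were tested and 10 were called. With library totals alone, 15 were called higher and 3 lower. In this list, both directions occurred under either listed parental origin. Whether each gene is imprinted in the adult brain was not tested.

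**Figure D5:**
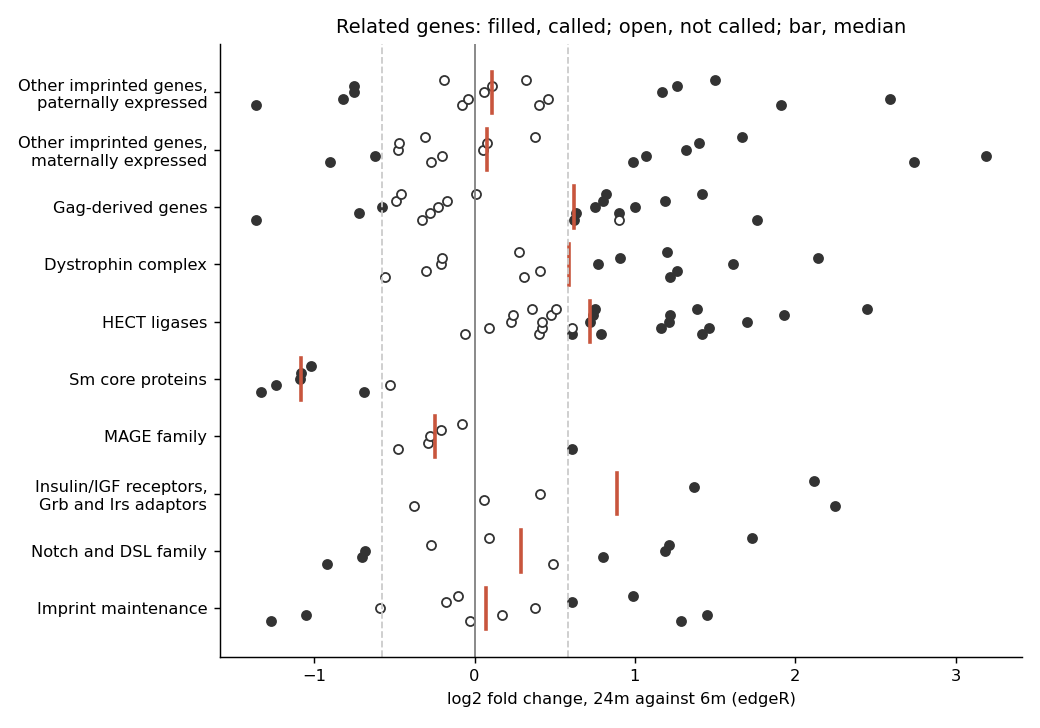
Log2 fold change of 24m against 6m (x axis) for other imprinted genes and for relatives and partners of the 10 genes, with called genes filled, others open, the list median as a red bar and the threshold of 0.58 dashed. HECT ligases were called higher or not called, Sm core proteins lower or not called, and imprinted genes listed under either parental origin went in both directions.

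Genes related to each member by family or pathway were read in the same fit. Ube3a is a HECT-type ligase, and among 25 other HECT ligases 14 were called higher and none lower (56% called, against 43.6% of all genes), with a median log2FC of 0.72. Nedd4 and Itch, which tag membrane and signalling proteins with ubiquitin, rose most (log2FC 2.45 ± 0.29 and 1.93 ± 0.27, edgeR padj = 0.000146 and 0.000297). With the length trend removed their log2FC were 1.88 and 1.44. Ube3a, at -1.64, was lower than all 25, whose lowest value was -0.06. Since Ube3a was chosen on this contrast, its place among them is only a description.

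Snrpn went the same way as the other Sm core proteins, the ring that binds spliceosomal RNA. Of 7 tested, 6 were called lower and none higher (85.7% called, against 43.6% of all genes), with a median log2FC of -1.08. Snrpg and Snrpf fell most (log2FC -1.33 ± 0.15 and -1.24 ± 0.09, edgeR padj = 0.000112 and 2.05e-05), and with the length trend removed their log2FC were -0.78 and -0.61. The exception was Snrpb, the close relative of Snrpn, at -0.53 ± 0.13 (edgeR padj = 0.00631), just inside the fold-change threshold.

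Peg10 is one of the Gag-derived genes, of which 21 others were tested, with 10 called higher, 3 lower (61.9% called, against 43.6% of all genes) and a median log2FC of 0.62. Rtl6 and Rtl5 rose most (log2FC 1.76 ± 0.14 and 1.42 ± 0.13, edgeR padj = 2.42e-05 and 4.34e-05). Rtl1 and Rtl8c fell most, the latter at -0.72 ± 0.11 (edgeR padj = 0.000542). Rtl8c has near-identical copies, so its count is uncertain, and it was not called with library totals alone (-0.50), after quantile normalization (-0.53) or with the length trend removed (-0.31). Peg10, at 3.61, lay above all of them, which is only a description since Peg10 was chosen on this contrast.

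For Sgce, 7 of 14 other genes of the dystrophin-associated complex were called higher and none lower, a share of 50% that is near the 43.6% of all genes. The gene for dystroglycan, Dag1, rose most (12.6 ± 2.72 to 55.8 ± 13 CPM, log2FC 2.14 ± 0.21, edgeR padj = 5.6e-05), followed by Utrn. The sarcoglycan genes Sgca, Sgcb, Sgcd and Sgcz had log2FC of -0.21 to 0.41, and none of these was called, as for Sgce.

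The remaining relatives were fewer. Called were 50% of the Grb10 pathway, 100% of the 2 other PLAG genes and 16.7% of the MAGE family, against 43.6% of all genes. Of 6 genes of the Grb10 pathway, the insulin receptor gene Insr and the receptor substrates Irs1 and Irs2 rose (log2FC 1.37 ± 0.28, 2.25 ± 0.36 and 2.12 ± 0.24, edgeR padj = 0.00207, 0.000629 and 0.000116). Grb7, Grb14 and Igf1r were not called (log2FC 0.06, -0.38 and 0.41). Both other PLAG genes, Plag1 and Plagl2, rose with Plagl1 (log2FC 1.41 ± 0.35 and 1.68 ± 0.28, edgeR padj = 0.00616 and 0.000716). Of 6 other MAGE-family genes, Magee1 alone was called (log2FC 0.61 ± 0.14, edgeR padj = 0.00464), and it was not called without 24m replicate 4, at 0.49. Genes of Notch receptors and ligands, the family of Dlk1, numbered 10 and gave 4 higher and 3 lower (70% called, against 43.6% of all genes). The called ones ran from Notch2 (log2FC 1.73 ± 0.31, edgeR padj = 0.00113) to Dll3 (log2FC -0.92 ± 0.13, edgeR padj = 0.000291).

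Genes that establish or keep imprints had a median log2FC of 0.07, and of 12 tested 4 were called higher and 2 lower, a share of 50% that is near the 43.6% of all genes. Zfp57 and Zfp445 encode the zinc finger proteins that protect methylated imprints, and they went in opposite directions. Zfp57 fell from 4.24 ± 0.301 to 2.05 ± 0.473 CPM (log2FC -1.05 ± 0.17, edgeR padj = 0.000636), and Zfp445 rose from 5.12 ± 1.76 to 12.5 ± 3.76 CPM (log2FC 1.29 ± 0.30, edgeR padj = 0.00479). The methyltransferase gene Dnmt3a rose (log2FC 1.45 ± 0.23, edgeR padj = 0.000575), with a log2FC of 0.82 after the length trend was removed. Methylation itself was not measured in these libraries.

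Markers of cell types and regions moved with age too. For comparison, 25.3% of all tested genes were called higher and 18.3% lower. Summed over 6 astrocyte markers, the level was 458 to 508 CPM at 6m and 954 to 1063 CPM at 24m, with 5 of 6 called higher. Summed over 9 hypothalamic markers, it was 180 to 222 CPM at 6m and 69.4 to 159 CPM at 24m, with 7 of 9 called lower and none at 0. Neuronal markers summed to 3407 to 3809 and 3894 to 4049 CPM, with 3 of 7 called higher and 1 lower, and microglial markers to 281 to 286 and 320 to 369 CPM, with 2 of 6 called higher. Summed levels of pituitary markers were 1.68 to 5.19 CPM at 6m and 0.436 to 1.43 CPM at 24m, with 2 of the 3 tested called lower and Fshb at 0, and those of meningeal markers were 2402 to 3193 and 1267 to 2036 CPM, with 1 of 6 called lower, Ptgds, whose mean of 2642 CPM at 6m and 1563 CPM at 24m made up most of the sum. The sums for oligodendrocyte, endothelial and choroid plexus markers overlapped between the ages. The part of these shifts in the values of the imprinted genes was not tested.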

How the data were processed

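Gene counts of 8 libraries were analysed. The authors trimmed reads with Trim Galore 0.4.11, aligned them to GRCm39 with HISAT2 2.1.0 and deposited raw counts per Ensembl gene. Strand use and multimapping were not given in the sources used here. Identifiers were matched to GENCODE names of the same build from a later release, and 149 had no match (0.312% of counts). The 16730 genes that passed the filter (above 5 counts in 4 or more libraries) were fitted with edgeR 4.0.16 in R 4.3.3 (quasi-likelihood, TMM factors, age as the only term) with Benjamini-Hochberg adjustment. A standard error is the log2FC over the square root of F. Log2 CPM used a prior count of 2. No replicate pair agreed within sampling noise (chi-square of 8.17 to 424 per degree of freedom over 12 pairs). On simulated data the fit recovered fewer changed genes than the criterion first set, which was then loosened.

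The 10 genes and all lists were chosen with earlier results of these data known. Named besides the 10 were, per list, up to 2 called genes of at least 1 CPM with the largest and 2 with the smallest log2FC (short lists in full), tested neighbours of Peg10 and Ube3a, and the 3 genes most like each of these, apart from items that are not reported here. Other neighbours, Snurf, Gm38393, Snrpb, the sarcoglycans and the Peg3–Usp29 pair were chosen after their values were seen. Alternatives covered scaling (RLE factors, library totals, quantile normalization), DESeq2 1.42.0 and limma-voom (limma 3.58.1), filters and thresholds, length and GC trends, thinning to the smallest library, a replicate block, and each library left out. Isoforms and long-read data were not used here.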

Additional observations from a re-analysis of the deposited data

Results flagged for a closer look

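In groups of 4 libraries, 86 sets of values were examined for 1 library far from the rest by Dixon's criterion at the 95% level, and 3 stood out, where chance gives about 1 in 20. Grb10 had 5.88 CPM in 6m replicate 2, against 3.95 to 4.21 CPM in the other young libraries. Ppp1r9a had 4.21 CPM in 6m replicate 4, against 5.35 to 5.58 CPM. Atp10a had 4.98 CPM in 6m replicate 3, against 4.33 to 4.37 CPM. Without these libraries, Grb10 had a log2FC of 2.15, Ppp1r9a one of 2.66 and Atp10a one of -0.15, and none of the 3 calls changed.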

How the results depend on the processing

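Of the 10 imprinted genes, 5 to 7 were called under the 21 alternatives, and each of Peg10, Peg3, Grb10 and Plagl1 kept its direction throughout, as did Ube3a, Snrpn, Ndn and Dlk1. The count was 5 after quantile normalization with DESeq2, and 6 with library totals alone, with the length trend removed or at an adjusted p of at most 0.01. With a filter of at least 1 CPM in 4 libraries, 10 of the other imprinted genes were called (fewer were tested). Signs changed only where the value of the main fit was small. Sgce was -0.06 after quantile normalization, -0.45 with the length trend removed (edgeR padj = 0.0101) and -0.24 with the GC trend removed. It was -0.03 to 0.07 when single libraries were left out. Magel2 was -0.23 after quantile normalization and -0.02 to 0.20 when single libraries were left out. Col1a2 was -0.27 (length) and -0.03 (GC), Pon1 -0.05 (GC), and Atp10a 0.03 with library totals alone and -0.31 to 0.01 when single libraries were left out. For these reversals the cause was not tested. Pon3 passed the fold-change threshold with library totals alone (0.71).

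With the replicate number as a block, 7 of the 10 genes and 7242 genes in all were called. The labels do not say that same-numbered mice share anything, and the correlations of their deviations were 0.27, 0.14, 0.08 and -0.35, so this replicate block is given only here. Among the 10 genes, depth in the young libraries was lowest for Peg10, with 42 to 87 counts, and in the aged libraries for Plagl1, with 147 to 595. Parental alleles, strand of counting and shares of cell types were not resolved by these data.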
